A study of Mus musculus with 4 samples.

Results

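The sarcomeric thin filament genes described here are 10 mouse genes that encode troponin subunits, tropomyosins, striated muscle actins and proteins of the filament's pointed end: Tnnc1, Tnni3, Tnni1, Tnnt2, Tpm1, Tpm2, Actc1, Acta1, Tmod1 and Lmod2. They were chosen by name. Their values are the rows of the deposited count files whose RefSeq transcript maps to one of these symbols, summed per symbol, which makes 31 of 41449 transcript rows and 10 of 25044 genes. Of the 10 genes, 5 held counts (Tnnc1, Tnni3, Actc1, Tmod1 and Lmod2) and 5 were listed at 0 in every library (Tnni1, Tnnt2, Tpm1, Tpm2 and Acta1).

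Heart RNA was sequenced in 4 libraries, 1 for each group, each made from 3 pooled hearts of mice aged 12 weeks. In the pair labelled C57BL/6, mice of the cMyBP-CΔC10mut line, which carry a transgene with a 25-bp variant of MYBPC3, gave the library dC10mut, and nontransgenic animals gave NTG. In the other pair, labelled FvB/N, mice of the cMyBP-C(t/t) line gave the library tt and control mice gave the library control. The first pair is called the HCM (hypertrophic cardiomyopathy) pair and the second the DCM (dilated cardiomyopathy) pair, after what each model is known for. Both models alter cardiac myosin binding protein C, a protein of the thick filament. The promoter that drives the transgene is not given in the sources used here, and since hearts were pooled, the spread between animals cannot be seen.

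The thin filament is a polymer of actin along which tropomyosin lies, with a troponin complex at regular intervals. When calcium binds troponin C, the grip of troponin I on actin is released and tropomyosin moves aside, so that myosin heads can attach. Adult mouse ventricle uses the cardiac isoforms of troponin I and actin, while the slow skeletal troponin I and skeletal actin genes are known for their activity in the fetal heart and, for skeletal actin, in hypertrophy. Tropomodulin caps the pointed end of the filament, and leiomodin promotes its elongation there.

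Annotated start regions of 5 of the genes are printed to show what differs in sequence among genes with opposite ratios, and between the counted cardiac actin gene and the skeletal actin gene listed at 0. Each runs from 250 bases before to 50 bases after the start annotated by RefSeq (GRCm38.p6), 5′ to 3′ on the gene's strand. The windows are chr14:31208062-31208361 on the plus strand for Tnnc1, chr7:4522479-4522778 on the minus strand for Tnni3, chr2:114052826-114053125 on the minus strand for Actc1, chr8:123894726-123895025 on the minus strand for Acta1 and chr4:46038972-46039271 on the plus strand for Tmod1. Capitals mark the CArG box, the binding sequence of serum response factor; the M-CAT core CATTCC on either strand, bound by TEAD factors; and TATAAA on the gene's strand.
Tnnc1: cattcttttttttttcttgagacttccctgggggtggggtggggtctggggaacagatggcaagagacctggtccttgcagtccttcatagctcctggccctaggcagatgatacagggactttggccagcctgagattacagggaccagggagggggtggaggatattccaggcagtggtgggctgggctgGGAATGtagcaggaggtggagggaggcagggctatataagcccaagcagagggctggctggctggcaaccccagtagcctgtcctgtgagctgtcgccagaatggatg
Tnni3: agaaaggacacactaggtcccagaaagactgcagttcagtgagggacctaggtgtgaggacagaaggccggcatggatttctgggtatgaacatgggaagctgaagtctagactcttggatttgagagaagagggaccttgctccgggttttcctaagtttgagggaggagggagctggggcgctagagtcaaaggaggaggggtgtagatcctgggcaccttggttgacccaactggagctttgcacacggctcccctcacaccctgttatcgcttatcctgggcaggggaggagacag
Actc1: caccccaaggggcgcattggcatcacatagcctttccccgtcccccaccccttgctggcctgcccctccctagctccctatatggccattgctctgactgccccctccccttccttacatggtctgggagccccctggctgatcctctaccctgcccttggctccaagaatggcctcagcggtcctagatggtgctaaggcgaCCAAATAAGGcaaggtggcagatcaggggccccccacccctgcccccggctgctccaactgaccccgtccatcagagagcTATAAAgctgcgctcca
Acta1: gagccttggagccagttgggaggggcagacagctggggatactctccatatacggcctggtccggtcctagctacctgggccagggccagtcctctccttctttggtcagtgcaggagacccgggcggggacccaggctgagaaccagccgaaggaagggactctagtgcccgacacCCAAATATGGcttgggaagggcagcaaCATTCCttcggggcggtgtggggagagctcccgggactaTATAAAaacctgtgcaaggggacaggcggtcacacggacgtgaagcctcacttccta
Tmod1: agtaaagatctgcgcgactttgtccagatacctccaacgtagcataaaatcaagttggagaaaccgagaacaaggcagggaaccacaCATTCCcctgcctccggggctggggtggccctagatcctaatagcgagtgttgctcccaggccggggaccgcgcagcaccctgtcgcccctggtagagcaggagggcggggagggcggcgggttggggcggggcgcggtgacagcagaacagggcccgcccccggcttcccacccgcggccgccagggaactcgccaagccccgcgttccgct

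Both actin windows held a CArG box and TATAAA, the Acta1 window also held the M-CAT core, and the marked sequences do not overlap each other. The Tnnc1 window held the M-CAT core on the minus strand and the Tmod1 window held it on the plus strand, while the Tnni3 window held none of the 3 motifs. TATAAA lies past the annotated start in the Actc1 window and just before it in the Acta1 window. Over 32544 RefSeq promoter windows of the same length, 1.64% held a CArG box, 14.6% the M-CAT core and 13.6% TATAAA. These matches describe letters in a window and not binding.

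The total counts were 187365 in dC10mut, 170543 in NTG, 186420 in tt and 176633 in control, so that 1 count equals between 5.19 and 6.23 CPM, a count put on a shared library size with trimmed-mean (TMM) factors. Between 6725 and 6989 genes a library held a count. Of 12 cardiomyocyte markers 11 held counts, led by Myl2, the ventricular myosin regulatory light chain, with 3520 counts in dC10mut, 2405 in NTG, 2453 in tt and 2556 in control. The cardiomyocyte markers Myl3 (0 counts) and Myh6 (0 or 1 count), which the heart is known to express strongly, were at or near 0 and have 2 transcript rows each. Pln, Mb, Atp2a2 and Csrp3 held between 0 and 3 counts a library and Ttn between 7 and 11. The counts other than those of Myl2 were thus nearly all of Ryr2, Ckm, Mybpc3 and Actn2. Among the skeletal muscle markers Myh1, Myh2, Myh4, Pvalb, Tnni2, Tnnc2 and Tnnt3, which has 17 rows, were at 0 in every library. Atp2a1 held between 3 and 8 counts a library, and Actn3, Myh8 and Mylpf between 0 and 2. Ckm, which is on both muscle lists, held between 290 and 432. The erythroid markers were all at 0. A marker listed at 0 is not read here as an absence of its RNA. The Xist locus held 155 counts in dC10mut and 0 in NTG, and 173 in tt and 0 in control, so sex of the pooled mice and genotype cannot be told apart.

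The 5 genes listed at 0 were Tnni1, the slow skeletal inhibitory subunit; Tnnt2, the cardiac subunit that joins troponin to tropomyosin; Tpm1 and Tpm2, the alpha and beta tropomyosins; and Acta1, skeletal actin. They have 26 transcript rows among them, and each of these rows was at 0 in all 4 libraries. Tnnt2 and Tpm1 encode main proteins of the adult mouse heart filament, so the listing at 0 is not read as an absence of their RNA. The 5 counted genes have 1 row each, whereas those at 0 have 2 rows (Tnni1 and Acta1), 3 (Tpm2), 9 (Tnnt2) and 10 (Tpm1).

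Of the 26 rows, 19 have no exon base that is not shared with another row of the same gene. Neither Acta1 row has such a base, and the most any Tnnt2 row has is 4. Rows with more were at 0 too. The most was 937 bases in a Tpm1 row, 384 in a Tnni1 row and 284 in a Tpm2 row, and both Tnni1 rows have such bases. In the whole series 45.7% of the 16947 genes with 1 row held a count, against 21.8% of the 4093 genes with 2 rows and 17.7% of the 3807 genes with 3 or more. Genes with several rows held 14.3% of all counts. Gamma actin (Actg1), which most cells use and which has 2 rows, was also at 0. The counts of Tnni1, 0 beside 783 to 1079 counts of Tnni3, and of Acta1, 0 beside 906 to 1403 counts of Actc1, are therefore given with no isoform share read from them.

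**Figure D1:**
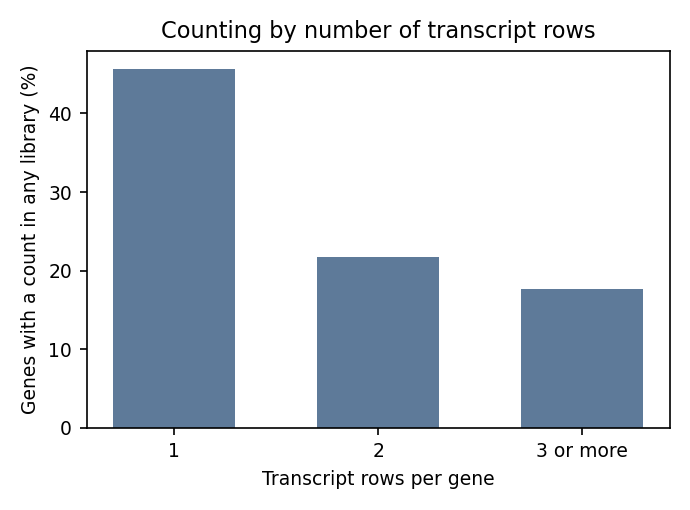
The vertical axis is the percent of genes with a count in any of the 4 libraries, and the horizontal axis is the number of transcript rows a gene has in the files. The bar for 1 row stands at 45.7%, above the bars for 2 rows (21.8%) and for 3 or more (17.7%); the 5 counted thin filament genes are in the first group and the 5 listed at 0 in the others.

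Among the counted genes, the largest signals came from cardiac actin and cardiac troponin I. Per kilobase of transcript, Tnni3 had the highest level in every library, with 6318 CPM per kb in dC10mut, 5353 in NTG, 4578 in tt and 5721 in control. Actc1 came next in dC10mut (5086), NTG (3835) and tt (3846), and Tnnc1 came after it (4207, 3087 and 2974 in the same libraries). In control that order was turned round, with Tnnc1 at 4674 and Actc1 at 4042 CPM per kb, and the exact Poisson 95% intervals of the pair did not overlap (4311 to 5059 for Tnnc1, and 3805 to 4290 for Actc1).

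Lmod2 and Tmod1 were several-fold lower per kilobase than the other counted genes in each library. Lmod2 had 599.9 CPM per kb in dC10mut, 599.5 in NTG, 804 in tt and 693 in control. Tmod1 had 408, 569, 441 and 439 in the same libraries. In NTG the intervals of these neighbours overlapped (517 to 691 for Lmod2, and 505 to 638 for Tmod1), so their order there is not larger than counting error. Summed over the 5 counted genes, the level was 18759 CPM in dC10mut and 15737 in NTG, and 14965 in tt and 17296 in control.

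**Figure D2:**
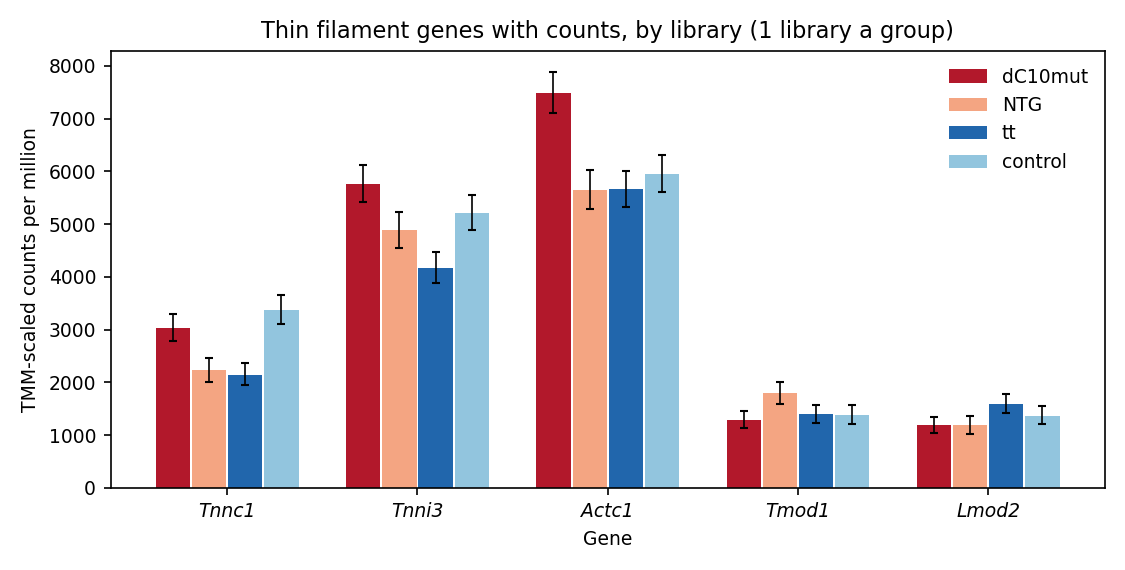
Bars give the TMM-scaled CPM of the 5 counted genes in each library, 1 library for each group, and error bars are exact Poisson 95% intervals that cover counting error only. Actc1 reaches 7492 CPM in dC10mut and stays between 5649 and 5954 in the other libraries, while Tnnc1 is high in dC10mut and control and low in NTG and tt.

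The question of the HCM pair is how hearts with the variant transgene differ from nontransgenic hearts. With 1 library a group there is no p-value. Differences were therefore sorted by a size rule: a log2 ratio of at least 1 either way, with an exact conditional binomial (Clopper-Pearson) 95% interval clear of equality and 1 CPM in at least 1 of both libraries. None of the 5 counted genes passed, against 4.33% of the 8033 genes with a count in the pair. The values of Tnnc1, Tnni3 and Actc1 were above those of NTG and that of Tmod1 was below.

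Tnnc1 encodes cardiac and slow skeletal troponin C, the calcium sensor of the filament (chromosome 14, 31208312 to 31211729, GRCm38, plus strand). It held 568 counts in dC10mut and 357 in NTG, or 3033 and 2226 CPM, a log2 ratio of 0.45 (95% interval 0.25 to 0.64). In the DCM pair it held 413 counts in tt and 613 in control, or 2145 and 3370 CPM, a log2 ratio of -0.65 (-0.84 to -0.47). Thus dC10mut and control were the high libraries and NTG and tt the low ones, whichever was mutant.

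Tnni3 encodes cardiac troponin I, the inhibitory subunit (chromosome 7, 4518305 to 4524229, minus strand). It held 1079 counts in dC10mut and 783 in NTG, a log2 ratio of 0.24 (0.10 to 0.37). It held 804 counts in tt and 949 in control, a log2 ratio of -0.32 (-0.46 to -0.18). The sign was positive in the HCM pair and negative in the DCM pair, as for Tnnc1, with both ratios smaller; dC10mut was the highest library and tt the lowest. Over all annotated exons of Tnni3, which cover 2063 bp, 86 bp are shared on the same strand with Dnaaf3. Dnaaf3 held 4 counts in dC10mut, 3 in NTG, 7 in tt and 7 in control.

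Actc1 encodes cardiac alpha actin (chromosome 2, 114047282 to 114053548, minus strand). It held 1403 counts in dC10mut and 906 in NTG, a log2 ratio of 0.41 (0.29 to 0.53). It held 1091 counts in tt and 1083 in control, a log2 ratio of -0.07 (-0.19 to 0.05), which counting error covers. The library dC10mut alone lay above the others. No stretch of 50 bases of the Actc1 transcript occurs in a transcript of another gene, and likewise for Tnnc1, Tnni3 and Lmod2.

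Tmod1 encodes tropomodulin, the pointed-end cap (chromosome 4, 46038935 to 46116032, plus strand). It held 241 counts in dC10mut and 288 in NTG, a log2 ratio of -0.48 (-0.73 to -0.23). It held 268 counts in tt and 252 in control, a log2 ratio of 0.01 (-0.25 to 0.26). NTG alone was high, at 1796 CPM against 1287 to 1392 in the other libraries. Tmod1 exons lie opposite those of Tstd2 over 1287 bp, and 39.8% of the 50-base stretches of its transcript also occur in another gene's transcript or its reverse complement, or 3.63% without Tstd2; Tstd2 itself held 1 count in dC10mut, 0 in NTG, 0 in tt and 1 in control.

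Lmod2 encodes the cardiac leiomodin (chromosome 6, 24597762 to 24605414, plus strand). It held 222 counts in dC10mut and 190 in NTG, a log2 ratio of 0.00 (-0.28 to 0.29). It held 306 counts in tt and 249 in control, a log2 ratio of 0.21 (-0.03 to 0.46). Counting error covers both ratios, and tt had the highest level of the 4 libraries.

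In the DCM pair, which asks how cMyBP-C(t/t) hearts differ from control hearts, none of the 5 counted genes passed the size rule either, against 4.28% of 8248 genes. The lowest value was that of Tnnc1, which was 1.57-fold lower in tt. The median log2 ratio of the 5 counted genes was 0.24 for dC10mut over NTG, beside -0.11 over all genes tested, and -0.07 for tt over control, beside -0.05. The counted genes other than Tmod1 have no exon opposite another gene, and the 1058 genes of that kind with at least 10 counts had a median of 0.19 for dC10mut over NTG, against -0.18 for 1013 genes with such an exon; the value of 0.24 is near that of like genes. In bulk tissue, fewer cells of a type and less RNA per cell cannot be told apart. The 12 cardiomyocyte markers summed to 25311 CPM in dC10mut and 22034 in NTG, and to 18875 in tt and 19665 in control, and Myl2 set both directions. The 11 markers other than Myl2 summed to 6515 CPM in dC10mut and 7039 in NTG, and to 6138 in tt and 5613 in control, so both directions turned round without it. Among them is Mybpc3, the gene of the protein that both models alter, with 412 counts in tt and 266 in control. The log2 ratios of tt over control were 0.55 for Mybpc3 and 0.43 for Ryr2, against -0.17 for Ckm and -0.25 for Actn2. The atrial markers, of which only Nppa and Tbx5 held counts, summed to 139 CPM in dC10mut and 81.1 in NTG, and to 109 in tt and 341 in control. The endothelial list summed to 1244 CPM in dC10mut and 1378 in NTG, and to 691 in tt and 1413 in control. The part of these sums in the thin filament ratios was not tested.

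Because these genes are deeply counted, their intervals are narrow, and a ratio outside counting error is common among genes of like depth. Among genes with at least 150 counts in each library of the comparison, the interval excluded equality for 66.5% of 155 genes in the HCM pair and for 4 of the 5 thin filament genes. In the DCM pair it did so for 64.0% of 164 genes and for 2 of the 5 (Tnnc1 and Tnni3). Neither count sets the thin filament genes apart from that background. Tnnc1 stood at percentile 94.2 of these genes by HCM ratio and at percentile 7.32 by DCM ratio.

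**Figure D3:**
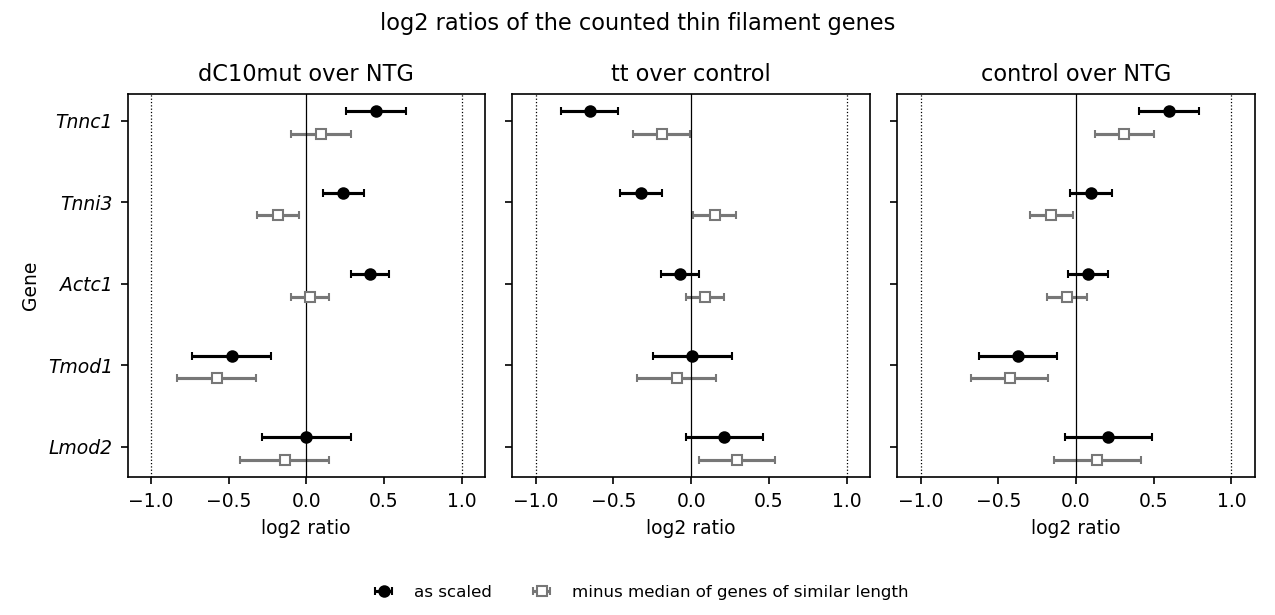
Each panel gives log2 ratios of the 5 counted genes with 95% counting intervals, for dC10mut over NTG, tt over control and control over NTG; dotted lines mark a log2 ratio of 1 either way. Filled circles are the scaled ratios, which all lie inside the dotted lines. Open squares are the same ratios minus the median of genes of similar transcript length with no opposite-strand exon. There Tnni3 moves to -0.18 for dC10mut over NTG and to 0.15 for tt over control.

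The control libraries differ in strain label and give a yardstick, though each is also the partner of a pair and so shares its counts with that pair's ratio. The size rule took 3.09% of 8152 genes between control and NTG, and none of the 5 counted thin filament genes. Tnnc1 had a log2 ratio of control over NTG of 0.60 (0.41 to 0.79), in size between its ratios in the mutant comparisons. Tmod1 had -0.37 (-0.62 to -0.13), Lmod2 0.21 (-0.07 to 0.49), Tnni3 0.10 (-0.04 to 0.23) and Actc1 0.08 (-0.05 to 0.20). The interval excluded equality for 2 of the 5, against 47.6% of the 166 genes with at least 150 counts.

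The pairs share no library, so their ratios can be set against each other. The DCM log2 ratio minus the HCM log2 ratio was -1.10 for Tnnc1 (-1.36 to -0.84, normal approximation of counting error), -0.56 for Tnni3 (-0.75 to -0.37), -0.48 for Actc1 (-0.65 to -0.31), 0.49 for Tmod1 (0.14 to 0.84) and 0.21 for Lmod2 (-0.16 to 0.58). Tnnc1 alone of the 5 reached a difference of 1, as did 5.80% of the 6937 genes compared and 9.09% of the 143 with at least 150 counts. The interval excluded 0 for 4 of the 5, against 55.2% of those 143 genes. By this difference Tnnc1 stood at percentile 0.699 of the deeply counted genes, Tnni3 at 6.99 and Actc1 at 9.79.

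The order of these differences followed transcript length. The counted transcripts measure 721 bp for Tnnc1, 912 for Tnni3, 1473 for Actc1, 1976 for Lmod2 and 3158 for Tmod1. In genes with no exon opposite another gene and at least 10 counts in a library, the median log2 ratio of dC10mut over NTG was 0.45 up to 1000 bp (113 genes), 0.36 up to 2000 bp (272), 0.14 up to 3000 bp (226) and 0.04 above (447). For tt over control the medians over the same classes ran the other way, at -0.43 (108 genes), -0.16 (265), 0.06 (255) and 0.20 (525). Spearman's rho of ratio with length was -0.20 over 1058 genes in the HCM pair and 0.29 over 1153 in the DCM pair; all genes of a pair come from the same 2 libraries, so this is a description. Among these genes, short transcripts thus had the higher ratios in dC10mut over NTG and the lower ones in tt over control. For genes with an opposite-strand exon, medians were taken around the lengths of the counted thin filament genes. They ran between -0.22 and -0.11 for dC10mut over NTG and between -0.18 and 0.13 for tt over control, without that order.

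**Figure D4:**
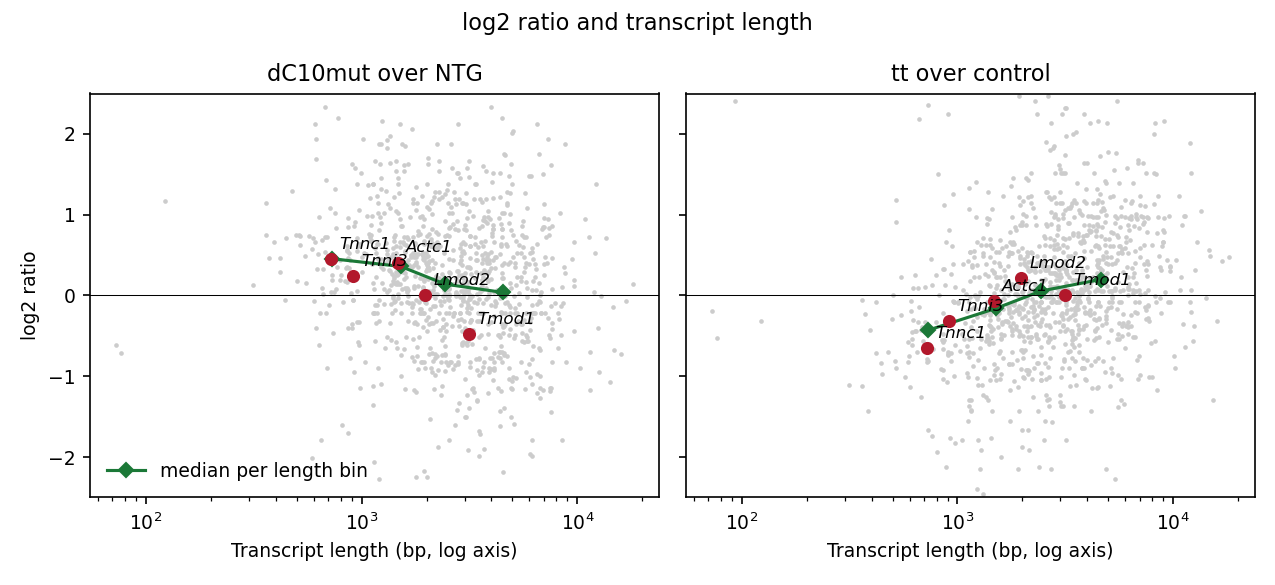
The log2 ratio of each gene is plotted against transcript length (log axis) for dC10mut over NTG and tt over control; grey points are genes with no opposite-strand exon and at least 10 counts, diamonds joined by a line are medians per length class, and red points are the 5 counted thin filament genes. The median line falls with length on the left and climbs with length on the right, from -0.43 for the shortest class to 0.20 for the longest; the axis ends at 2.5 either way, which leaves 34 points out of view over both panels.

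Set against genes of similar transcript length with no opposite-strand exon, Tnnc1 in both pairs and Actc1 in the HCM pair lay nearer 0. Tnnc1 differed by 0.09 (-0.10 to 0.29) in the HCM pair, relative to 67 genes, and by -0.19 (-0.37 to -0.01) in the DCM pair. Actc1 differed by 0.02 (-0.10 to 0.14) and by 0.09 (-0.03 to 0.21). Tnni3 changed sign in both pairs, to -0.18 (-0.32 to -0.05) and 0.15 (0.01 to 0.29). Against all genes of similar length Tnni3 kept its signs, at 0.07 (-0.07 to 0.20) and -0.24 (-0.38 to -0.10). Tnnc1 was then at 0.29 and -0.31, and Actc1 at 0.27 and 0.08. These intervals hold the counting error of the gene and not that of the median it was set against.

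The difference between pairs for Tnnc1 became -0.26 (-0.52 to 0.00) against genes with no opposite-strand exon. Against all genes of similar length it was -0.66 (-0.93 to -0.40), and both values are under the size rule. For Lmod2 the difference was 0.41 (0.04 to 0.78) against genes with no opposite-strand exon and 0.25 (-0.12 to 0.61) against all genes of similar length. For Tmod1 it was 0.42 (0.07 to 0.77) against genes with no opposite-strand exon and 0.33 (-0.02 to 0.68) against genes with one. Tmod1 in the HCM pair moved to -0.57 (-0.83 to -0.32) against 251 genes of its length with no opposite-strand exon. Tmod1 itself has such an exon, and against 235 genes of its length that have one too it was at -0.29 (-0.54 to -0.04), percentile 31.1. On the first of these scales Lmod2 in the DCM pair was at 0.29 (0.05 to 0.54). The value of Tnnc1 for control over NTG was 0.31 (0.12 to 0.50) after the same centring. What makes the ratios of genes with no opposite-strand exon move with length was not tested.

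A ratio of counts of 2 genes inside a library needs no scaling between libraries, but it is not centred on transcript length. Genes of Actc1's length with no opposite-strand exon had a median log2 ratio of 0.38 for dC10mut over NTG. The median was -0.19 for genes of Tmod1's length with such an exon. For tt over control, genes with no such exon had medians of -0.46 around Tnnc1's length and -0.16 around Actc1's. The part of these medians in the changes below was not tested. The Tnnc1 to Actc1 ratio was 0.405 in dC10mut, 0.394 in NTG, 0.379 in tt and 0.566 in control. Control stood apart and the other 3 libraries lay within each other's intervals; the log2 change was 0.04 (-0.19 to 0.27) in the HCM pair and -0.58 (-0.80 to -0.36) in the DCM pair. The Actc1 to Tmod1 ratio was 5.82 in dC10mut, 3.15 in NTG, 4.07 in tt and 4.30 in control, with a log2 change of 0.89 (0.61 to 1.17) in the HCM pair and -0.08 (-0.36 to 0.20) in the DCM pair. Here dC10mut was highest and NTG lowest, and tt and control did not differ beyond counting error.

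The Tmod1 to Lmod2 ratio, between the pointed-end cap and the elongating factor, was 1.09 in dC10mut and 1.52 in NTG, and 0.876 in tt and 1.01 in control. NTG was again the library with the highest value. The Tnnc1 to Tnni3 ratio, between the calcium sensor and the inhibitory subunit of troponin, was 0.526 in dC10mut and 0.456 in NTG, and 0.514 in tt and 0.646 in control. Its log2 change was 0.21 (-0.03 to 0.45) in the HCM pair and -0.33 (-0.56 to -0.10) in the DCM pair.

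**Figure D5:**
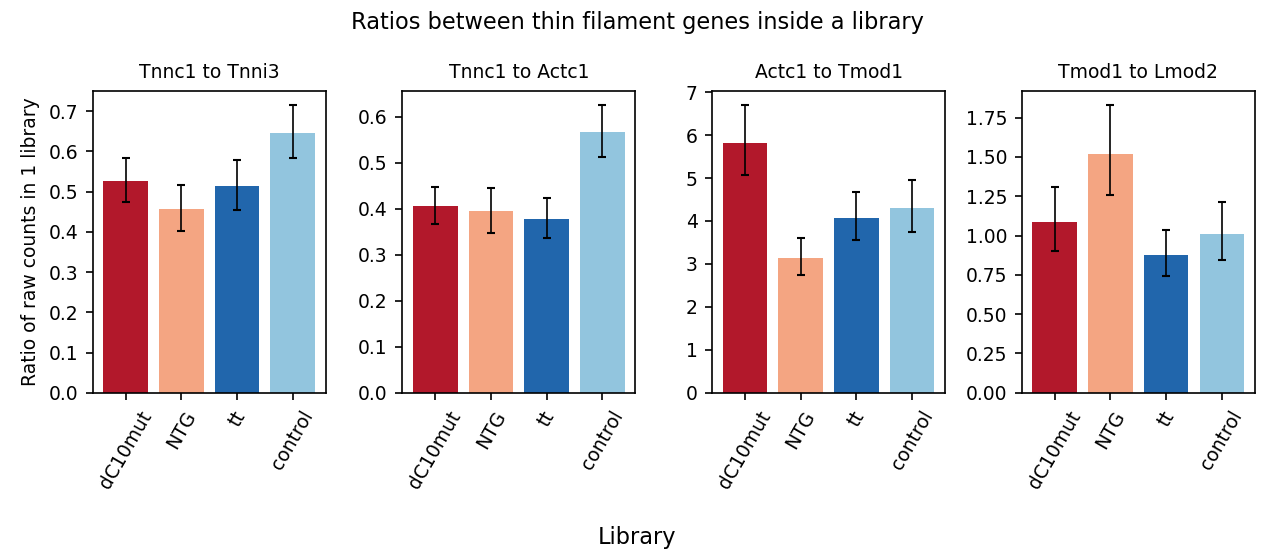
Bars give the ratio of the raw counts of 2 genes within a library for 4 gene pairs, with exact binomial 95% intervals; each panel has its own axis from 0. Control stands highest for Tnnc1 to Actc1 (0.566), dC10mut for Actc1 to Tmod1 (5.82) and NTG for Tmod1 to Lmod2 (1.52). The ratios are not centred on transcript length.

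A difference shared by both models was tested by quasi-likelihood in edgeR over 7360 genes, with pair as the blocking term, and 18 genes (0.245%) had a Benjamini-Hochberg adjusted p under 0.05. DESeq2 called 0 genes, edgeR without the block called 0, and edgeR with DESeq2 size factors called 13. None of the 5 counted thin filament genes was called in any of these fits. The log2 values of both mutants over both controls were 0.17 for Actc1, 0.11 for Lmod2, -0.04 for Tnni3, -0.10 for Tnnc1 and -0.24 for Tmod1, each with an edgeR adjusted p of 0.997, and none had an unadjusted p under 0.05 in edgeR or in DESeq2. This test has 1 residual degree of freedom. The Xist locus held 155 counts in dC10mut and 173 in tt and 0 in NTG and control. Sex of the pools and genotype can therefore not be told apart in this contrast.

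Of 38 other genes of the thin filament and of actin dynamics, 24 held a count in a library and 14 were at 0, of which 11 have several rows. In the HCM pair 14 of the 22 with a count had a positive log2 ratio. By the size rule, which took 4.33% of 8033 genes either way, 1 was higher. That was Acta2, smooth muscle actin, with 24 counts in dC10mut and 6 in NTG (log2 ratio 1.70, 0.45 to 3.36), and with 17 in tt and 24 in control. The smooth muscle and pericyte markers, a list that holds Acta2, summed to 918 CPM in dC10mut and 617 in NTG, and to 670 in tt and 863 in control. Without Acta2 the HCM pair had sums of 790 CPM in dC10mut and 580 in NTG. Most of these counts were of Rgs5, a pericyte gene, with 120 in dC10mut and 65 in NTG, whereas Tagln, a smooth muscle gene, had 26 in dC10mut and 28 in NTG. The part of these cells in the Acta2 ratio was not tested. The median over the 22 genes was 0.40, beside -0.11 over all genes. The median was 0.19 over the 1058 genes with at least 10 counts that lack an opposite-strand exon, as most of the counted genes of the list do. Only 15 genes of the list reached 10 counts in a library, so these medians cover genes of unlike depth.

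In the DCM pair 11 of 23 were positive, with a median of -0.01 beside -0.05 over all genes. By the size rule, which took 4.28% of 8248 genes either way, 1 of the list was higher. The gene that was higher by the size rule was Tnni3k, a kinase that binds cardiac troponin I, with 12 counts in tt and 2 in control (log2 ratio 2.25, 0.34 to 5.70), and with 16 in dC10mut and 6 in NTG. No gene of the list was lower by the rule in either pair. Actn2, the actin crosslinker of the Z-disc, held the most counts, with 264 in dC10mut and 299 in NTG (log2 ratio -0.40), and 263 in tt and 295 in control (-0.25). Lmod3, another leiomodin, held 65 counts in dC10mut and 32 in NTG (0.79), and 72 in tt and 66 in control (0.04).

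Of the other abundant members of that list, Cfl2, the muscle cofilin, held 43 counts in dC10mut and 39 in NTG, and 62 in tt and 47 in control; its exons lie opposite those of 1700081N11Rik. Xirp1, an actin-binding protein of the intercalated disc, held 35 counts in dC10mut and 43 in NTG, and 39 in tt and 30 in control. Beta actin (Actb) held 29 counts in dC10mut and 23 in NTG, and 24 in tt and 31 in control. At these counts neither pair differed beyond counting error for Cfl2, Xirp1 or Actb.

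Tnnc1 and Tmod1 had the widest ranges over the 4 libraries, 0.65 and 0.48 on the log2 scale. The nearest patterns to Tnnc1 among 1524 genes with at least 50 counts in all, by distance between centred log2 levels over the 4 libraries, were those of Mpc2, a mitochondrial pyruvate carrier subunit (distance 0.0640), Polr2l, a small RNA polymerase subunit (0.114), and Ndufa1, a subunit of respiratory complex I (0.119). Mpc2 held 64 counts in dC10mut, 38 in NTG, 45 in tt and 69 in control. The nearest to Tmod1 were Surf4, a cargo receptor of the endoplasmic reticulum (0.0470), Ogfr, the opioid growth factor receptor (0.0732), and Zdhhc5, a palmitoyltransferase (0.105). Surf4 held 59 counts in dC10mut, 73 in NTG, 66 in tt and 61 in control, and its exons lie opposite those of Surf2, as those of Zdhhc5 lie opposite those of Med19. With 4 points, such nearness is a description.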

How the data were processed

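Poly(A) RNA of whole hearts was sequenced with a kit that keeps the strand of origin, per the labels' protocols. STAR and HTSeq were used with mm10, per the submitters' processing notes; versions, counting mode and strand setting are not given in the sources used here, so which strand a count came from is unknown. The authors deposited unnormalized whole-number counts for each RefSeq transcript, as the values show. Of 41449 rows, 41252 matched a symbol and 35347 were placed on GENCODE release M21 (GRCm38). Counts were summed per symbol; 9344 genes held a count. Rows with an exon opposite another gene held between 66.9% and 70.4% of the counts on placed rows.

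Scaling used TMM factors over the 4 libraries (0.999 in dC10mut, 0.940 in NTG, 1.03 in tt and 1.03 in control), and log2 ratios a prior count of 0.5. A count of 0 allows up to 3 counts, taken as the floor, which equal between 15.6 and 18.7 CPM. Intervals cover counting error only, since each group has 1 library of pooled hearts. PCR copies are not independent molecules, so the intervals may be too narrow even for counting error. The common difference used genes at 1 CPM in at least 2 libraries. Tools were edgeR 4.0.16 and DESeq2 1.42.0 in R 4.3.3, and SciPy 1.17.1 in Python 3.11.15. Fits were also run on simulated counts, whose spread was set in advance and need not match that between these pools. Alternatives were other scalings, prior count, filters and tests. The genes and lists were chosen with earlier results of these data known, and the ratios inside a library, the centring on length, the medians of like genes, the marker sums without a gene and the minimum of 150 counts were added after values were seen. Named genes were the 10 thin filament genes, every other thin filament gene past the size rule with up to 5 more of most counts, and the 3 nearest patterns to each of the 2 genes of widest range.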

Additional observations from a re-analysis of the deposited data

Results flagged for a closer look

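Tnnc1 and Tnni3 had log2 ratios of opposite sign in the 2 pairs, each outside counting error, which is what drew attention to them. The DCM log2 ratio minus the HCM log2 ratio was -1.10 for Tnnc1 and -0.56 for Tnni3. With 1 library a group, this difference between the models was not tested. Relative to genes of similar length with no opposite-strand exon, the difference was -0.26 for Tnnc1 and 0.15 for Tnni3. Relative to all genes of similar length it was -0.66 and -0.31.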

How the results depend on the processing

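Under the other scalings, the prior count of 2, the minimum of 10 counts and the use of the transcript with the most counts, Tnnc1 kept its signs, between 0.33 and 0.53 for dC10mut over NTG, between -0.69 and -0.63 for tt over control and between -1.18 and -1.01 for the difference. Tnni3 lay between 0.13 and 0.33 for dC10mut over NTG and between -0.36 and -0.30 for tt over control. Lmod2 for dC10mut over NTG ran between -0.11 and 0.09, and Actc1 for control over NTG between -0.01 and 0.21, the upper value with library totals. Centring on genes of similar length with no opposite-strand exon was chosen after seeing the data. For dC10mut over NTG it gave 0.0935 (Tnnc1), -0.18 (Tnni3) and 0.0227 (Actc1). In the same gene order it gave -0.19, 0.15 and 0.0885 for tt over control. For control over NTG it gave 0.31, -0.16 and -0.0597, and for the difference -0.26, 0.15 and -0.0186. The difference for Tmod1 was 0.42 and that for Lmod2 0.41 after this centring. The cause was not tested. The summed level in NTG was 14800 CPM with library totals, and without Actc1, the gene with the most counts, the sums were 11267 CPM in dC10mut, 10088 in NTG, 9300 in tt and 11342 in control. The common test, with 18 genes called and 330 at an unadjusted p under 0.05, called 13 with DESeq2 size factors (323 at an unadjusted p under 0.05), 0 with DESeq2 (43 at an unadjusted p under 0.05), 11 with no filter and 0 without the pair as a block (465 at an unadjusted p under 0.05). The labels give no replicate numbers. No paired analysis was possible because each group has 1 library; the block is the pair. Leaving out a library leaves no residual degree of freedom, so it was not run. Shares of Tpm2 in Tpm1 and Tpm2 could not be computed, since both are listed at 0, and dividing by length does not alter a share of 0.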

Other observations

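Summed levels of the remaining cell type lists differed between libraries. Macrophage markers summed to 214 CPM in dC10mut and 87.3 in NTG, and to 51.9 in tt and 203 in control. Fibroblast markers summed to 117 CPM in dC10mut and 168 in NTG, and to 109 in tt and 198 in control. The skeletal muscle list, nearly all Ckm, summed to 2339 CPM in dC10mut and 2207 in NTG, and to 1521 in tt and 1743 in control.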
